A study of Caenorhabditis elegans with 3 samples.

Results

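The mitochondrial ribosomal protein genes of Caenorhabditis elegans were examined for peaks of the transcription factor ELT-3 at their promoters. They were chosen by symbol, as the protein-coding genes named mrpl (large subunit) or mrps (small subunit), and made up 70 of the 19973 protein-coding genes on the nuclear chromosomes. Of these, 41 were large-subunit and 29 small-subunit genes. The assay was ChIP-seq, the sequencing of DNA that is pulled down with an antibody against a protein bound to it. The worms were whole L1 larvae, the first larval stage, of strain OP75, with the genotype unc-119(ed3) III; wgIs75. The wgIs75 transgene supplies ELT-3 with a GFP-FLAG tag at its C terminus, and both sexes were pooled. All libraries carried this genotype, so the data hold 1 group of 2 biological replicates, the second made of 2 technical libraries, and no untagged or mutant worms to set against it. The labels point to a control experiment, which was not analysed here.

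Mitochondria keep a small genome of their own and translate it on ribosomes built from mitochondrial RNA and from proteins that are encoded in the nucleus and imported. These ribosomes make core subunits of the respiratory chain and of ATP synthase, whose other subunits come from nuclear genes. In worms, lowering mitochondrial ribosomal proteins, mrps-5 above all, is known to induce the mitochondrial unfolded protein response and to lengthen life. ELT-3 is a GATA factor with best-known roles in the epidermis (hypodermis), which makes the cuticle, and GATA factors bind short sites with GATA at their core.

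The data were lists of peaks with a signal value and a q-value per peak, both the authors' own, and a summit, the peak's highest point. The main list was the one filtered by irreproducible discovery rate (IDR), a measure of how well peaks agree between replicates. It held the strongest 11.9% of the 10082 pooled peaks, those with signals of at least 35.5. The pooled signals went down to 14.8 and their q-values up to 0.961, so weak pooled peaks may be background. Replicate 1 had 10775 peaks and replicate 2 had 4080, and replicate 2 peaks overlapped 117 of the IDR peaks (9.73%). The lists hold no read counts, so depth is unknown, and whole larvae do not show in which cells a peak arose. A gene was counted as bound where its window, the 1000 bp before and the first 200 bp after its 5′ end, held a summit.

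Of the 70 mitochondrial ribosomal protein genes, 3 had an IDR summit in this window, mrpl-28, mrpl-49 and mrpl-15. This was 4.29% (exact Clopper-Pearson 95% interval 0.893 to 12), beside 3.44% of all protein-coding genes, and 685 of 19903 other genes were bound. The share was close to the background and is not a result about these genes: at the rate of the other genes, 2.41 of the 70 would be bound. All 3 encode large-subunit proteins (3 of 41, 7.32%, interval 1.54 to 19.9). None of the 29 small-subunit genes had an IDR summit, which leaves a share of up to 11.9% by the same interval. The intervals of the subunits overlap, which is no test of a difference, and none was made.

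The strongest of the 3 was at mrpl-28, on chromosome II, with a pooled signal of 52.2 and 51.8 in replicate 1. It ranked 477 among the pooled peaks, with a q-value of 0.000484. The peak (ce11, chrII:155978-156273) lay between genes, with its summit 117 bp upstream of mrpl-28, and no other gene's window held it. The next, at mrpl-49 on chromosome V, had a pooled signal of 48.3 and 49.4 in replicate 1, and ranked 592. This peak (ce11, chrV:12728302-12728597) lay in the 518 bp between mrpl-49 and rpl-28, which is read in the opposite direction and encodes a protein of the large cytosolic ribosomal subunit. The summit was 181 bp upstream of mrpl-49 and 338 bp upstream of rpl-28, so it lay in the windows of both and was counted for both. No replicate 2 peak overlapped either peak. The 101 bases around each summit are shown because they carry the 2 strongest signals at these genes, 5′ to 3′ on the strand of the gene, from the ce11 assembly. They are at chrII:156076-156176 (minus strand) for mrpl-28 and chrV:12728400-12728500 (plus strand) for mrpl-49.
mrpl-28 summit: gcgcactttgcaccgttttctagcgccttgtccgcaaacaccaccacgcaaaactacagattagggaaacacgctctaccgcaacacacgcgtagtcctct
mrpl-49 summit: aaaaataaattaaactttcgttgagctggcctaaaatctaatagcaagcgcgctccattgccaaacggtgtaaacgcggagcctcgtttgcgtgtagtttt
Neither sequence has capitals, because neither holds the GATA motif that was searched (AGATAA or AGATAG, and TGATAA or TGATAG, read on either strand), and no copy was found elsewhere in the 2 peaks. Their GC contents were 53.5% and 42.6%.

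The remaining gene, mrpl-15, had a pooled signal of 38.0 and 38.5 in replicate 1, ranked 1060 and had a q-value of 0.00236. Its summit was 627 bp upstream, between genes, in a peak at chrI:1435504-1435799 (ce11) that no other gene's window held. Replicate 2 had no overlapping peak here either. The nearest protein-coding gene upstream was 11077 bp away, and mrpl-28 likewise had 6364 bp of sequence upstream before the next gene. The median signal over the 3 genes was 48.3, beside 48.9 over the other bound genes.

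The next 5 genes by pooled signal lay below the IDR limit of 35.5, at pooled ranks 1477 (mrps-21) to 1927 (mrpl-40). All had a replicate 1 peak of like value, but replicate 1 is part of the pool. Whether the pooled and replicate 1 signals share a scale is not stated. The small-subunit gene mrps-21 had a pooled signal of 32.0 (replicate 1, 32.5) and a q-value of 0.0146. Its summit was 978 bp upstream, and the nearer 5′ ends were those of F29B9.11, 294 bp away, and of the histone demethylase gene jmjd-1.2, 496 bp away. The large-subunit gene mrpl-13 had 31.0 (replicate 1, 30.8) at a summit in its own exon, 86 bp downstream of its start, with a q-value of 0.0244. The small-subunit gene mrps-7 had 30.7 (replicate 1, 29.8) at 195 bp upstream, a summit it shared with the divergent gene Y57G11C.3, with a q-value of 0.0264. The large-subunit genes mrpl-17 and mrpl-40 had 28.5 (replicate 1, 29.7) and 28.0 (replicate 1, 28.4), with q-values of 0.0458 and 0.0542. The summit of mrpl-17 lay between it and vbh-1, which encodes a DEAD-box RNA helicase, and that of mrpl-40 lay in an exon of F54C4.4, 1 bp inside that gene's start. Of these 5 summits, those of mrps-21 and mrpl-40 were thus nearer to the start of another gene, and none was overlapped by a replicate 2 peak.

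**Figure D1:**
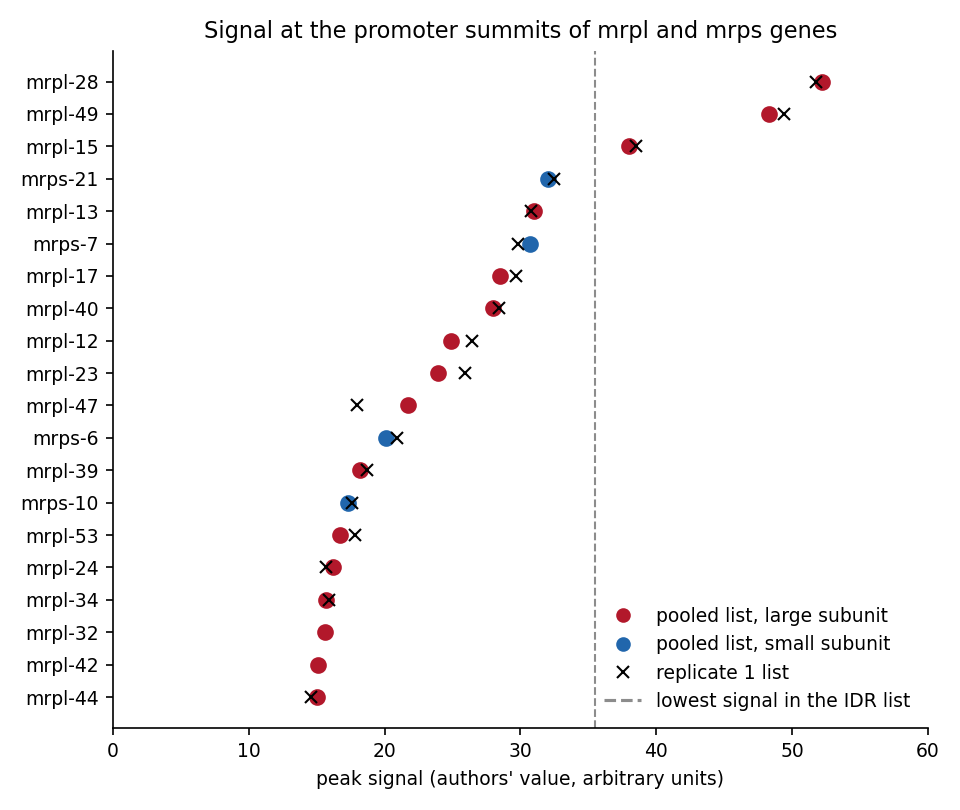
Pooled signal (circles, large subunit red, small subunit blue) and replicate 1 signal (crosses) in arbitrary units at the strongest promoter summit of the 20 mitochondrial ribosomal protein genes with a pooled summit. The 3 genes mrpl-28, mrpl-49 and mrpl-15 lie right of the dashed line at 35.5, the lowest signal in the IDR list, and mrpl-32 and mrpl-42 have no replicate 1 summit in the window. Whether the pooled and replicate 1 signals share a scale is not stated.

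Over the whole pooled list, 20 of the 70 genes had a summit in the window (28.6%, interval 18.4 to 40.6), beside 17.9% of all protein-coding genes and 17.8% of the other 19903. The share was 1.6 times that of the other genes, at whose rate 12.5 of the 70 would be bound, and 1.09 times it among pooled peaks with a q-value of at most 0.01 (3 of 70). The large subunit had 16 of 41 (39%, interval 24.2 to 55.5) and the small subunit 4 of 29 (13.8%, interval 3.89 to 31.7). These 2 intervals overlap, which is no test of a difference. The median pooled signal was 22.8 at these 20 genes and 21 at the other bound genes. Many of these peaks were weak: 7 of the 20 had a q-value of at most 0.05, and 8 (40%) had one over 0.5, beside 43.6% of the other bound genes. Of the pooled summits, 15% at mitochondrial ribosomal protein genes were in the IDR list, beside 19.3% at other bound genes.

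Counting down the pooled list shows where the genes entered. Among the 500 strongest peaks 1 of the 70 had a summit (1.43%), beside 1.49% of other genes. Among the 2000 strongest, with signals of at least 27.6, the count was 8 (11.4%), beside 5.58%, a ratio of 2.05. It was 11 (15.7%, beside 9.69%) at 4000 peaks, 13 (18.6%, beside 12.7%) at 6000 and 16 (22.9%, beside 15.4%) at 8000. The ratio thus lay between 1.46 and 2.05 at each of these steps past the IDR limit, and at 0.957 among the 500 strongest. No test was made, since the genes were chosen with results of these data known.

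**Figure D2:**
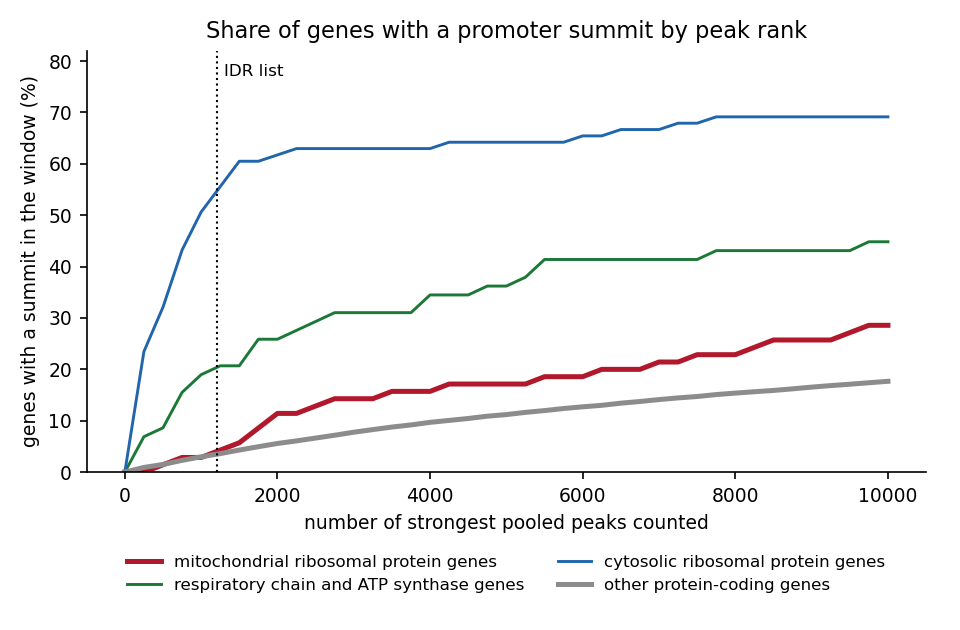
Share of genes with a summit in the promoter window (percent) against the number of strongest pooled peaks counted, for mitochondrial ribosomal protein genes (thick red), 58 respiratory chain and ATP synthase genes (green), 81 cytosolic ribosomal protein genes (blue) and other protein-coding genes (thick grey). The red line runs with the grey one up to the dotted line, the length of the IDR list, and above it from there on, at 11.4% against 5.58% at 2000 peaks, and stays below the green and blue lines.

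Below these, 7 further genes completed the 12 with the highest pooled signal outside the IDR list. The large-subunit genes mrpl-12, mrpl-23, mrpl-47, mrpl-39 and mrpl-53 had pooled signals of 24.9, 23.9, 21.7, 18.2 and 16.7, and the small-subunit genes mrps-6 and mrps-10 had 20.1 and 17.3. Their pooled q-values ran from 0.14 (mrpl-12) to 0.81 (mrpl-53). The summit of mrpl-23 lay in an intron of fars-1, a phenylalanyl-tRNA synthetase gene, 947 bp upstream. That of mrpl-53 lay in an intron of E02H1.6, 571 bp upstream. The summit of mrps-6 was shared with rpn-8, which encodes a subunit of the proteasome's regulatory particle, at 283 bp from mrps-6 and 262 bp from rpn-8. The summit of mrpl-47 lay 21 bp downstream of its own start, in an exon, and it was 1 of 2 among the 20 that a replicate 2 peak overlapped, the other being that of mrpl-44.

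Of the 20 summits, 18 (90%) lay upstream, beside 88.7% for other bound genes, in a window that is itself mostly upstream. The median lay 277 bp upstream of the 5′ end, beside 256 bp upstream for other bound genes. By place, 13 lay between genes, 5 in exons and 2 in introns. Another protein-coding gene shared 11 of the 20 summits (55%), which also lay in its window, beside 34.5% for other bound genes. For 14 of the 20 (70%) the mitochondrial ribosomal protein gene had the nearest 5′ end, beside 82.4%. These include mrpl-44, to whose summit mccc-2 was equally near, at 419 bp, and ties were counted as nearest for other genes too. Counting a summit for the nearest 5′ end alone, ties included, left 14 of the 70 genes, and 1.35 times the share of other genes.

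**Figure D3:**
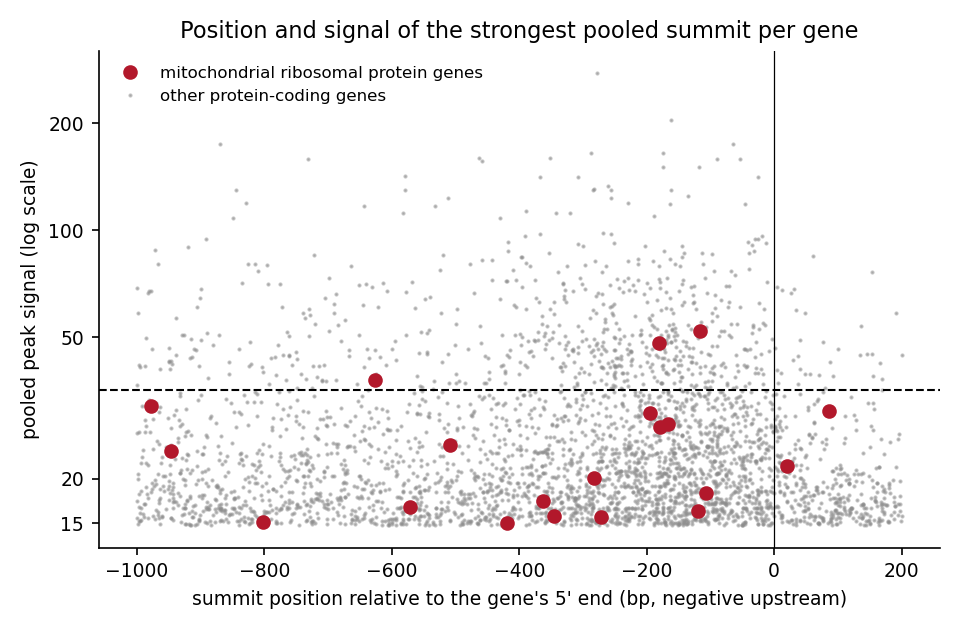
Pooled signal (log scale) of the strongest summit in the window of each bound gene against its distance from the gene's 5′ end in bp, negative upstream, for the 20 mitochondrial ribosomal protein genes (red) and the 3546 other bound genes (grey). The dashed line is the lowest signal in the IDR list; 3 red points lie above it and 18 of the 20 lie upstream of the 5′ end.

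The genes were then counted in each replicate's own list. Replicate 1 alone had a summit at 21 of the 70 genes (30%, interval 19.6 to 42.1), beside 18.7% of all protein-coding genes, and 18 of these 21 (85.7%) also had a pooled summit, beside 91.1% of the other genes with a replicate 1 summit. Replicate 2 alone had a summit at 9 of the 70 (12.9%, interval 6.05 to 23), beside 5.3% of all genes, and 3 of these 9, mrpl-44, mrpl-47 and mrpl-53, also had a replicate 1 summit and a pooled one. Of the other genes with a replicate 2 summit, 24.7% also had a replicate 1 summit and 26% a pooled one, so the overlap between lists was low over all genes. The remaining 6, named here after their values were seen, were mrpl-50, mrpl-54, mrpl-55, mrps-23, mrps-25 and mrps-28. Signals in replicate 2 are on another scale, with a median of 2.47 at these 9 genes and 2.67 at other genes. The lists also differ in reach: q-values went up to 0.00371 in replicate 2 and to 0.96 in replicate 1. Median peak widths were 596 bp in replicate 2 and 296 bp in replicate 1. Shares and overlaps between the 2 lists are thus not like for like. The highest of the 9 was 4.08 at mrpl-53, 178 bp downstream of its start, and the next 3.13 at mrpl-55, 644 bp upstream. Replicate 2 thus had no summit in the window of mrpl-28, mrpl-49 or mrpl-15. In all, 41 of the 70 genes (58.6%) had no summit in the window in any of the 4 lists, beside 76.7% of other genes.

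One of these 41 was mrps-5. Its start lies 103 bp downstream of the end of sel-1, a gene of protein quality control at the endoplasmic reticulum, on the same strand of chromosome V. No summit lay at the start of sel-1 in the IDR or pooled list either. The nearest IDR summit was 6362 bp upstream of mrps-5. The genes whose nearest IDR summit lay just outside the window were mrps-28, with a signal of 40.4 at 1022 bp upstream, in an intron of Y43F8C.7, and mrpl-48, with 37.3 at 1183 bp upstream. They were followed by mrpl-32, with 79.4 at 2584 bp upstream, and mrps-23, with 40.2 at 1789 bp downstream. With a window reaching 2000 bp upstream, 5 of the 70 genes had an IDR summit, at 1.48 times the share of other genes.

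These genes are closely packed. A gene on the same strand ended within 500 bp upstream of 27 of the 70 (38.6%), beside 17.6% of other genes. The median gap was 105 bp, beside 184 bp, and 19 of the 27 gaps (70.4%) were of 80 to 120 bp, beside 25.9% for other genes so placed. Such spacing is known in worms from operons, in which genes are transcribed together from a promoter ahead of the first gene. No annotation of operons was used, and the distances were chosen after the data were seen. A further 25 (35.7%) had a divergent gene starting within 1000 bp, beside 17.1% of other genes, and 13 (18.6%) had no close neighbour, beside 58.3%. The last 5 (7.14%, beside 6.96%) start inside another gene.

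Among the 27 genes behind a close same-strand gene, none had an IDR summit in its own window, beside 2.14% of other genes so placed. With a divergent neighbour it was 1 of 25, mrpl-49 (4%, beside 7.07%), and with no close neighbour 2 of 13, mrpl-28 and mrpl-15 (15.4%, beside 2.84%). Pooled summits were found at 7 of 27 (25.9%, beside 15.6%), 9 of 25 (36%, beside 27.9%) and 3 of 13 (23.1%, beside 15.6%) in the same order. At the rate of other genes of the same arrangement, 2.86 of the 70 would have an IDR summit and 14.1 a pooled one, against 3 and 20 found.

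The 27 genes were then traced upstream, through same-strand genes at most 500 bp apart, to the first gene of the run. For 5 of the 27 (18.5%) the first gene had an IDR summit in its window, beside 6.65% of all genes in such a place and 6.56% of the others, at whose rate 1.77 would. For 15 of the 27 (55.6%) it had a pooled summit, beside 25.3% of all and 25.1% of the others, at whose rate 6.77 would. No interval is given for these shares, which rest on few genes. The 27 genes belong to 26 runs, since mrps-2 and mrpl-4 follow each other behind natc-1, whose pooled summit counted for both here and below. Of these 26 runs, 5 had an IDR summit at the first gene (19.2%), beside 164 of 2601 other runs (6.31%). A pooled summit lay there in 14 of the 26 runs (53.8%), beside 633 of the 2601 (24.3%). Over all 70 genes, 8 (11.4%) had an IDR summit in their own window or in that of their run's first gene, and 31 (44.3%) a pooled one. Since more of these genes than of others lie in runs, the like shares are those at the rates of other genes of the same arrangement, which were 6.42% (4.5 of 70) and 27.8% (19.5 of 70).

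The 5 runs, named after their values were seen, began with genes of other processes. The run of mrpl-54 began with clsp-1, a claspin gene, and its summit had a signal of 92.2 and was shared with eef-2, the gene of a cytosolic translation elongation factor. The run of mrpl-32 began with rpn-3, a proteasome regulatory subunit gene, with 79.4 at a summit shared with the chaperone gene hsp-110. The run of mrps-14 began with nrde-2, a gene of nuclear RNA interference, with 50.7 at a summit shared with atad-3, which encodes a mitochondrial membrane ATPase. The run of mrps-26 began with atp-2, the gene of the beta subunit of ATP synthase, with 46.2, and mrps-26 was gene 3 of it. The run of mrpl-48 began with vps-37, of the endosomal sorting machinery, with 37.3, the sole one of the 5 summits held by no other gene's window. The summits lay between 1183 bp (mrpl-48) and 6479 bp (mrps-26) upstream of the mitochondrial ribosomal protein gene, and none had a GATA motif within 50 bp. Whether the genes of a run share a transcript was not tested, and with as many of the strongest peaks of replicate 2 alone the count of 5 was 0, beside 1.48% of other genes.

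**Figure D4:**
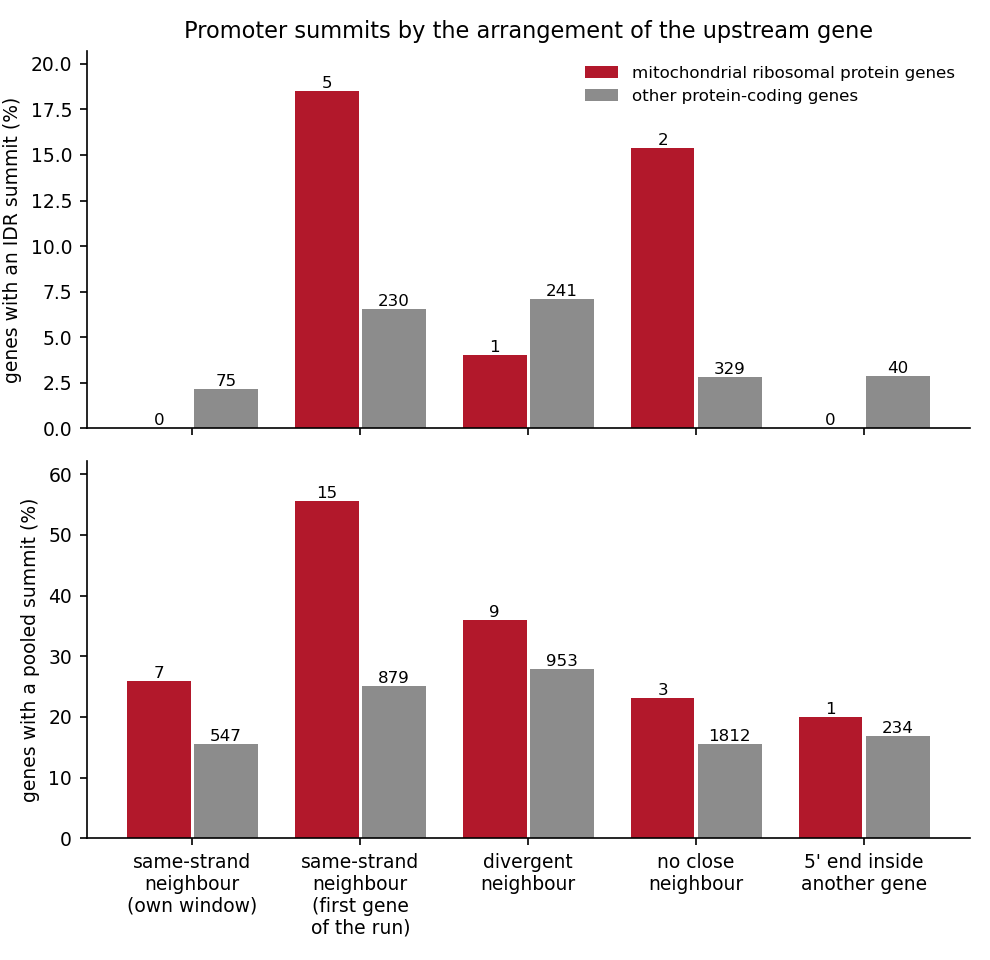
Percent of mitochondrial ribosomal protein genes (red, left bar of each pair) and other protein-coding genes (grey, right bar) with an IDR summit (top) or a pooled summit (bottom) in the promoter window, by the arrangement of the upstream gene, with the number of genes over each bar. The second pair counts a summit at the first gene of the same-strand run, where the red bars stand at 18.5% and 55.6% and the grey bars at 6.56% and 25.1%.

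The GATA motif was counted at these summits. Within 50 bp of the IDR summits it was found at 0 of 3, beside 148 of the 524 summits (28.2%) at other genes. Within 50 bp of the pooled summits it was found at 2 of 20 (10%), those of mrps-7 and mrpl-53, beside 827 of 2935 (28.2%) at other genes. At the replicate 2 summits it was found at 2 of 9 genes (22.2%), mrpl-44 and mrpl-53, beside 24.5% of other genes with a replicate 2 summit. In windows of equal size 500 bp to both sides of the pooled summits, 6 of 40 (15%) held it at mitochondrial ribosomal protein genes and 19.2% at other genes. Cytosolic ribosomal protein genes had it at 4 of 41 IDR summits (9.76%). At mrpl-15 a TGATAA lay 71 bp before the summit, outside these 50 bp, and an AGATAG lay 141 bp after it.

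The 2 summit windows with a motif are shown for comparison with those of mrpl-28 and mrpl-49, 5′ to 3′ on the strand of the gene, with the motif in capitals (ce11, chrIV:14767875-14767975, minus strand, for mrps-7, and chrII:9597001-9597101, plus strand, for mrpl-53). Both peaks were weaker than those of mrpl-28 and mrpl-49. Their pooled q-values were 0.0264 at mrps-7 and 0.81 at mrpl-53, so the mrpl-53 peak may be background.
mrps-7 summit: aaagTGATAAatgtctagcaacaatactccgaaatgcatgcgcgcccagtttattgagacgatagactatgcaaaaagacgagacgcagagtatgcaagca
mrpl-53 summit: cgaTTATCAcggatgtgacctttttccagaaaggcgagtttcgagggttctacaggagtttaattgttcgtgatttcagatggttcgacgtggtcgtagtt
The capitals start at base 5 in mrps-7 and at base 4 in mrpl-53, where they are the reverse complement of TGATAA, so both sites lie near the edge of the 101 bases and away from the summit at their middle.

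Over whole promoter windows of 1201 bp the motif was common, at 62 of the 70 genes (88.6%, mean 2.6 copies), beside 93.3% of all protein-coding genes (mean 3.1). In the 300 bp nearest to the start (250 bp upstream and the first 50 bases of the gene) 35 of the 70 held it (50%, mean 0.729 copies), beside 54.5% of all (mean 0.856). Both shares were close to the background. Of the 3 genes with an IDR summit, all held the motif in the longer window and none in the shorter.

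The genes were set beside other genes of mitochondrial function, from lists written with earlier results of these data known. Among 58 respiratory chain and ATP synthase genes, 12 had an IDR summit (20.7%, interval 11.2 to 33.4) and 26 a pooled one (44.8%). The strongest were cox-5B and cox-5A, of cytochrome c oxidase, at 91.0 and 90.4, cyc-1, of the cytochrome bc1 complex, at 79.7, and the ATP synthase genes atp-1, asb-2 and atp-2, at 71.4, 51.9 and 46.2. Mitochondrial ribosomal protein genes, whose products make the partner subunits of these complexes, reached 52.2 at most and had 4.29% with an IDR summit. The 81 cytosolic ribosomal protein genes (symbols rpl, rps or rla) had 44 (54.3%, interval 42.9 to 65.4) with an IDR summit and 56 (69.1%) with a pooled one. In 1 case, rpl-28 and mrpl-49, the summit was held by both kinds of ribosomal gene.

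The other genes of mitochondrial translation had no IDR summit (0 of 23, which allows up to 14.8% by the same interval) and 6 pooled ones (26.1%), the strongest at mma-1, with 29.1. Among 21 genes of protein import, 3 had an IDR summit (14.3%) and 11 a pooled one (52.4%), the 3 being ddp-1, tomm-20 and tim-1, at 64.5, 59.5 and 37.1. Among 15 genes of chaperones, proteases and the unfolded protein response, 2 had an IDR summit (13.3%) and 6 a pooled one (40%). These 2 were the mitochondrial chaperonin gene hsp-60, at 71.0, and the prohibitin gene phb-1, at 39.9, and each shared its summit with another gene. Of 7 genes of mitochondrial DNA and transcription, atad-3 had an IDR summit, at 50.7, and 2 a pooled one. The summits at atad-3 and atp-2 are also those counted above for the runs of mrps-14 and mrps-26. The intervals of these 4 lists and of the respiratory chain list (pooled, 31.7 to 58.5) overlap those of the mitochondrial ribosomal protein genes in both the IDR and the pooled list. For the IDR list the respiratory chain interval starts at 11.2 and that of the mitochondrial ribosomal protein genes ends at 12. Such overlap is no test of a difference, and none was made.

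**Figure D5:**
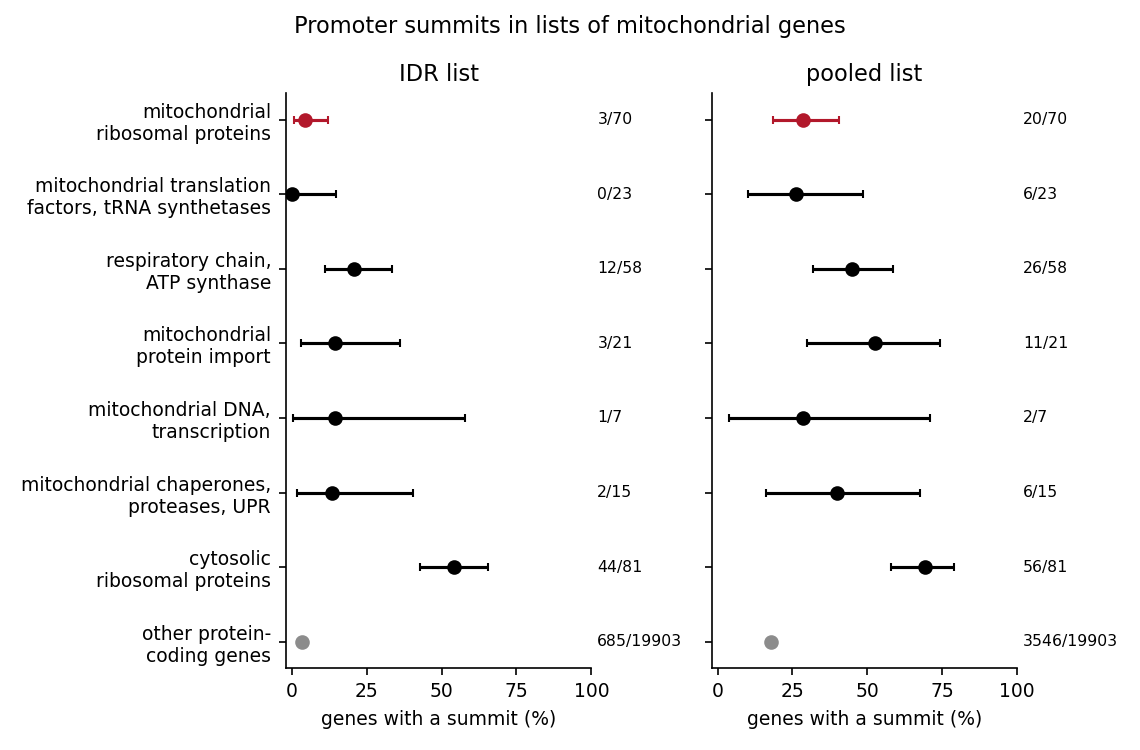
Percent of genes with an IDR summit (left) or a pooled summit (right) in the promoter window, with exact 95% intervals that cover counting error only and the number of bound genes of all genes at the right of each row. Mitochondrial ribosomal protein genes (red, top) stand at 4.29% and 28.6%, other protein-coding genes (grey, bottom) at 3.44% and 17.8%, and respiratory chain genes at 20.7% and 44.8%.

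The 70 genes lie on 5 of the 6 nuclear chromosomes. Chromosome III holds 22 of them, chromosome I 15, chromosome II 12, chromosome IV 11 and chromosome V 10. The X chromosome holds none of them, though it has 2731 protein-coding genes (13.7%) and 263 IDR peaks. Set against other genes of chromosomes I to V alone, the share with an IDR summit was 1.26 times that of other genes and the share with a pooled summit 1.66 times.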

How the data were processed

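Per the deposited records, peaks were listed for replicate 1, for replicate 2, for the pooled alignments and after the IDR filter. The aligner is not given in the sources used here, nor is the peak caller. Each peak has a signal, deposited by the authors on a scale that is not stated and that differs in replicate 2. The authors deposited its q-value as −log10, turned back into a q-value here. Coordinates are ce11 (the assembly WBcel235), 1-based, with genes of Ensembl release 115 and sequences of that assembly. Neighbours and places (exon, intron, between genes) refer to protein-coding genes. Where several summits lay in a window, the strongest stood for the gene. Genes and peaks of the mitochondrial genome were left out. Depth is unknown, and intervals (95%, Clopper-Pearson) cover counting error only.

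Genes and lists were chosen with earlier results of these data known, so no test was made. Of 136 list symbols, 12 had no match and were left out, and ucr-1 is in 2 lists. Named were genes with an IDR summit, the next 12 by pooled signal, mrps-5, the 4 with the nearest IDR summit outside the window, genes sharing a named gene's summit and up to 6 genes per list. Other names, the arrangement of neighbours, runs and motif counts in promoters were chosen after values were seen. Window assignment and motif search were checked on planted data. Python 3.11.15, numpy 2.4.6, scipy 1.17.1 and matplotlib 3.10.9 were used.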

Additional observations from a re-analysis of the deposited data

How the results depend on the processing

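The count of 3 genes with an IDR summit stayed between 2 and 4 under the smaller window, the nearest 5′ end and any transcript's 5′ end. The same held for any base of the peak and for the peaks above the median signal. It was 5 with the window of 2000 bp, where the median signal was 40.4. Without genes behind a close same-strand gene it had to stay at 3, since none of those had an IDR summit. Without replicate 2 (as many of the strongest peaks of replicate 1, whose list overlaps all IDR peaks) it was 3. Without replicate 1 it was 2, with mrpl-53 and mrpl-55 in place of the 3. Its ratio to other genes lay between 1.1 and 1.88 in these settings and on chromosomes I to V. The pooled count of 20 was 3 at q-values of at most 0.01, where the ratio to other genes was 1.09 in place of 1.6. It was 9 without replicate 1, in the whole replicate 2 list (ratio 2.44), and 21 without replicate 2, in the whole replicate 1 list (ratio 1.6). These lists hold 4080 and 10775 peaks and were not matched in number to the pooled list, so more than the replicate differs. Without genes behind a close same-strand gene the pooled count was 13 of the remaining 43 genes (ratio 1.65). The count of 0 of 3 IDR summits with a GATA motif was 1 within 100 bp, in the whole peak and for GATA alone. The count of 5 runs with an IDR summit at the first gene was 3 of 20 (15%, beside 7.81%) with genes at most 200 bp apart, 4 with the gene directly upstream, 5 without replicate 2 and 0 without replicate 1. Neighbour and run settings, chromosomes I to V, and the nearest 5′ end for pooled peaks were chosen after the data were seen. The cause of these shifts was not tested. No paired analysis was possible because there is 1 group.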
